A study of Mus musculus with 24 samples.

Results

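Transcripts of 10 marker genes of hepatic stellate cells (HSCs) and of mural cells were followed through RNA-seq counts of whole mouse liver and of sorted liver cells. The genes, taken by their listed symbols from all 4 count tables, were *Lrat*, *Des*, *Acta2*, *Tagln*, *Reln*, *Rgs5*, *Dcn*, *Ecm1*, *Hand2* and *Lum*, 10 of the 48820 entries of each table, and each symbol occurred once. The question was whether HSC transcripts remained at their level, or shifted toward those of activated cells, in livers whose HSCs had lost the genes for the BMP ligands that they make. *Gdf2/Bmp10* HSC-KO mice carried floxed (fl/fl) alleles of *Gdf2*, which encodes BMP9, and of *Bmp10*, and expressed Cre from *Lrat* (Lrat Cre). Whole livers came from such mice and from control mice at 12 weeks of age. Hepatic endothelial cells (ECs), sorted as CD45- CD31+ cells, and liver macrophages, sorted as CD45+ Ly6C- F4/80+ CD64+ cells, came from HSC-KO and control mice at 8 to 10 weeks. A further pair of groups held macrophages that lacked *Smad4*, from mice with Vav1 Cre, which acts in hematopoietic cells, and *Smad4* fl/fl alleles (*Smad4* cKO), and macrophages from *Smad4* fl/fl controls (Smad4FF in the labels). Each of the 8 groups had 3 libraries, all mice were untreated and on the C57BL/6 strain, and the labels show 3 mice from which ECs as well as macrophages were sequenced. The labels do not say whether control mice carried Cre, and how the Cre was placed at *Lrat* is not given in the sources used here. *Lrat* is itself among the 10 genes, and an effect of the Cre allele on its transcripts was not tested.

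HSCs lie in the space of Disse between hepatocytes and sinusoidal ECs and store vitamin A as retinyl esters. When the liver is injured they can turn into contractile cells that deposit matrix, with a fall in retinoid storage and a rise in smooth muscle actin, collagens and their partners. Mural cells, the pericytes and smooth muscle cells of vessels, share the contractile genes. *Lrat* encodes lecithin retinol acyltransferase, which makes retinyl esters. *Reln* encodes the secreted glycoprotein reelin, and *Hand2* a basic helix-loop-helix transcription factor of mesenchymal cells. *Des* (desmin, an intermediate filament), *Acta2* (alpha smooth muscle actin) and *Tagln* (transgelin, an actin-binding protein) belong to the contractile machinery, and *Rgs5* is a regulator of G protein signaling found in pericytes. *Dcn* (decorin) and *Lum* (lumican) are small leucine-rich proteoglycans that bind collagen, and *Ecm1* encodes an extracellular matrix protein.

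In the GENCODE vM21 annotation of GRCm38, all 10 are protein-coding genes. *Lrat* lies at chr3:82892579-82903973 on the minus strand, *Des* at chr1:75360329-75368579 on the plus strand, *Acta2* at chr19:34241090-34255590 on the minus strand and *Tagln* at chr9:45929619-45936058 on the minus strand. *Reln* (chr5:21884454-22344702) and *Ecm1* (chr3:95734147-95739569) are on the minus strand, and *Rgs5* (chr1:169655501-169695813) and *Hand2* (chr8:57320983-57324633) on the plus strand. *Dcn* (chr10:97479609-97518143) and *Lum* (chr10:97565128-97572703) are neighbours on the plus strand, 46985 bases apart. Exons of *Tagln* overlap the antisense gene *Gm48529* over 62.4% of their length, and those of *Hand2* overlap *Hand2os1* on the other strand over 19.6%. Whether the counting used the strand is not given in the sources used here, so reads of these genes and of their antisense partners cannot be told apart.

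Of the 10 genes, 7 had an upstream sequence in the RefSeq promoter table (GRCm38.p6). Those of *Lrat*, *Acta2*, *Des* and *Reln*, the genes for retinoid storage, the contractile filaments and reelin, are shown. The 250 bases before the RefSeq start were searched on both strands for the CArG box, the site of serum response factor in many contractile genes, and for TATAAA, and matches are in capitals. The search was run strictly and with 1 C or G allowed among the central A and T bases. The strict box was in 1.47% of the upstream sequences of 32851 genes, the relaxed one in 8.59% and TATAAA in 12.4%. None of the 7 genes had a strict match. *Acta2* had relaxed matches at -84 to -75 and at -34 to -25 from the RefSeq start. The GENCODE model of *Acta2* starts 217 bases further upstream, both lie within its first exon (chr19:34255290-34255590), and only 30 bases around each are given (chr19:34255438-34255467 and chr19:34255388-34255417, minus strand). *Lrat* (chr3:82903975-82904224, minus strand) had a relaxed match at -223 to -214. *Des* (chr1:75360042-75360291, plus strand) and *Reln* (chr5:22344706-22344955, minus strand) had no match to these letters in this window. *Ecm1* was the only one of the 7 with TATAAA, at -27 to -22.
Acta2, upstream match: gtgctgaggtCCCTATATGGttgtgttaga
Acta2, match near the start: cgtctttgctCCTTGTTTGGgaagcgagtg
Lrat: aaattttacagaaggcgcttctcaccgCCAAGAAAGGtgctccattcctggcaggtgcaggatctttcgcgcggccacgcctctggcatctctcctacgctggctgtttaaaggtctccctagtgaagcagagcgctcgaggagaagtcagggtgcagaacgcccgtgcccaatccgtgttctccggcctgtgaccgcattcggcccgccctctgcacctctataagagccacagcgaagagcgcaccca
Des: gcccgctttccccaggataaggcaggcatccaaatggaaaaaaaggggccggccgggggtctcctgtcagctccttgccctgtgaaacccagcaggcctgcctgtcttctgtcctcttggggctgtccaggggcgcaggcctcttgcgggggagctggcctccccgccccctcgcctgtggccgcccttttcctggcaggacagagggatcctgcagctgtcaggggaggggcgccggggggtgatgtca
Reln: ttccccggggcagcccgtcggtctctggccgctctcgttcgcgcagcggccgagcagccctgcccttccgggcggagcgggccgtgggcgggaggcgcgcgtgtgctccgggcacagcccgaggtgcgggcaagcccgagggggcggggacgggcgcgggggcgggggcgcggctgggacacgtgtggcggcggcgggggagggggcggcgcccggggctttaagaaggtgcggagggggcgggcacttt

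The libraries held 60911527 to 110879155 counts each, and a count of 3, taken as the limit of detection, equalled 0.0258 to 0.0524 CPM, the count scaled to a common library size, a limit that covers counting error only. In whole liver, *Gdf2* was at 18.4, 9.38 and 22.5 CPM in control and 3.85, 2.12 and 2.63 CPM in HSC-KO livers (a log2 fold change of -2.55 with a standard error, SE, of 0.37, edgeR quasi-likelihood adjusted p = 0.014). *Bmp10* was at 3.28, 2.72 and 1.99 CPM and at 0.0938, 0.262 and 0.111 CPM (log2 fold change -4.07, SE 0.49, adjusted p = 0.0066). *Smad4* was at 35.3 to 42.8 CPM in control and 12.6 to 17.2 CPM in *Smad4* cKO macrophages. Among the whole livers, HSC-KO replicate 3 was the only library with counts of Y-linked genes, and the other 5 had *Xist* counts. In ECs, *Xist* was counted in control replicate 1 and in HSC-KO replicates 1 and 3. In macrophages of the HSC-KO experiment it was counted in control replicate 3 and in HSC-KO replicates 2 and 3. Sex was thus uneven between the groups of these comparisons. Of 8 hepatocyte genes in whole liver, 0 met the call with edgeR or with DESeq2 and 3 had an unadjusted p below 0.05, and their summed level, without overlap, was 111381 to 137451 CPM in control and 143502 to 195479 CPM in HSC-KO libraries. Of 8 macrophage genes, 6 fell, *Csf1r* (log2 fold change -2.17), *Adgre1* (-1.72), *C1qc* (-1.41) and *C1qa* (-1.25) by the most, and their sum was 232 to 368 CPM in control and 80.9 to 123 CPM in HSC-KO livers. Of 12 endothelial genes, *Emcn* rose (3.24) while *Ptprb* and *Clec14a* fell (-1.14 each), with sums of 449 to 539 and 441 to 518 CPM. In the sorted cells, the same endothelial genes summed to 18132 to 18298 CPM in control and 15595 to 16692 CPM in HSC-KO ECs. The macrophage genes summed to 19062 to 31260 CPM over all macrophage libraries. None of these 28 genes was at 0 in whole liver, and the part of these shifts in the results below was not tested. In such bulk samples, fewer cells of a type and less of its RNA per cell cannot be told apart.

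In whole liver, the 10 genes did not move as a block. *Lum* rose in HSC-KO mice, *Dcn* and *Reln* were 1.86-fold and 1.91-fold higher without meeting the call defined next, and *Lrat*, *Acta2*, *Tagln*, *Rgs5* and *Ecm1* overlapped between the groups. A gene was called when the quasi-likelihood p of edgeR, adjusted by Benjamini-Hochberg, was below 0.05 and its log2 fold change, HSC-KO against control, beyond 1 in either direction. All 10 genes passed the filter on low counts, and 1 was called (*Lum*), where 2.48% of the 17118 genes tested were called. In 5 of the 10 (*Des*, *Reln*, *Dcn*, *Hand2* and *Lum*) the groups did not overlap, as in 19.7% of all tested genes. In these every HSC-KO library lay above every control library, where 8.8% of all tested genes did so, and no member lay below, where 10.9% did. The median log2 fold change of the 10 genes was 0.35 beside -0.01 over all genes tested, and 7 of the 10 were above 0, as were 48.6% of all genes. The summed level of the 10 was 361, 378 and 458 CPM in control and 567, 567 and 682 CPM in HSC-KO livers, a sum set mostly by *Dcn*, *Ecm1* and *Reln*.

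*Lum* was at 8.25, 7.01 and 9.48 CPM in control livers and at 19.9, 16.1 and 32.6 CPM in HSC-KO livers. The lowest HSC-KO library stood above the highest control library, and HSC-KO replicate 3 stood highest. The log2 fold change was 1.47 (SE 0.27, 95% confidence interval 0.85 to 2.09), which is 2.77-fold (edgeR quasi-likelihood adjusted p = 0.034). The call was lost without control replicate 1, 2 or 3 or HSC-KO replicate 1 (adjusted p = 0.12, 0.15, 0.10 and 0.090), with log2 fold changes of 1.38 to 1.60, and when the change was tested for being beyond 1 on the log2 scale (adjusted p = 0.63). Its neighbour *Dcn* was at 101, 119 and 141 CPM in control livers and at 209, 212 and 253 CPM in HSC-KO livers. The groups did not overlap, and the log2 fold change was 0.90 (SE 0.16, 95% confidence interval 0.52 to 1.27, adjusted p = 0.031). *Dcn* thus passed the adjusted p, as 2.83% of all tested genes did, but not the fold threshold. With each library left out in turn, its adjusted p lay between 0.052 and 0.13 and its log2 fold change between 0.80 and 1.04. The third matrix gene, *Ecm1*, was at 106, 124 and 125 CPM in control and 131, 121 and 173 CPM in HSC-KO livers. These ranges overlapped (log2 fold change 0.26, SE 0.16, adjusted p = 0.61).

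Of the HSC genes *Reln*, *Lrat* and *Hand2*, *Reln* was at 74.1, 51.6 and 90.4 CPM in control livers and at 132, 126 and 156 CPM in HSC-KO livers. Every HSC-KO library was above the control libraries, with a log2 fold change of 0.94 (SE 0.21, 95% confidence interval 0.45 to 1.42), and the adjusted p missed the threshold (0.067 with edgeR, 6.2e-04 with DESeq2). *Lrat* was at 8.92, 22.3 and 28.2 CPM in control and 13.04, 17.6 and 21.7 CPM in HSC-KO livers. The HSC-KO libraries lay inside the control range, and control replicate 1 was the lowest of the 6. The log2 fold change of -0.18 (SE 0.39, adjusted p = 0.92) had a 95% confidence interval of -1.09 to 0.73. Without control replicate 3 it was 0.18. Counted against *Lrat* in the same library, *Reln* had 8.31, 2.31 and 3.20 reads per *Lrat* read in control livers and 10.1, 7.17 and 7.16 in HSC-KO livers, so control replicate 1 overlapped the HSC-KO libraries on this ratio. *Hand2* was at 6.91, 5.41 and 7.82 CPM in control and 11.4, 8.51 and 9.86 CPM in HSC-KO livers. The groups did not overlap, while the adjusted p was 0.26 (log2 fold change 0.56, SE 0.20).

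*Acta2* and *Tagln* varied more among control livers than between the groups. *Acta2*, the standard marker of activated HSCs and also of vascular smooth muscle, was at 8.29, 0.248 and 2.64 CPM in control livers, that is 916, 19 and 238 counts. In HSC-KO livers it was at 2.88, 4.94 and 1.03 CPM. The highest and the lowest of the 6 libraries were both control livers, and the 95% confidence interval of the log2 fold change reached from -2.68 to 2.00 (estimate -0.34, SE 1.01, adjusted p = 0.95). Without control replicate 1 the estimate was 1.03, without HSC-KO replicate 3 it was 0.064 and without HSC-KO replicate 2 it was -0.93, so its sign rested on single libraries. Without control replicate 2, the library with the lowest level, it was -0.88. *Tagln* followed the same order among the controls, with 10.97, 3.09 and 5.19 CPM, and stood at 9.37, 9.10 and 4.96 CPM in HSC-KO livers (log2 fold change 0.28, SE 0.46, adjusted p = 0.88). For this gene control replicate 1 was the highest and control replicate 2 the lowest of the 6. *Des* was at 6.10, 3.87 and 6.32 CPM in control and at 7.79, 6.71 and 7.30 CPM in HSC-KO livers. Its groups did not overlap, by a small margin (log2 fold change 0.42, SE 0.22, 95% confidence interval -0.10 to 0.94, adjusted p = 0.52). The pericyte gene *Rgs5* was at 30.0, 40.5 and 41.7 CPM in control and at 31.1, 44.1 and 23.3 CPM in HSC-KO livers, which overlapped (log2 fold change -0.19, SE 0.24, adjusted p = 0.84). It was at 0.03 when *Xist* was a covariate.

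**Figure D1:**
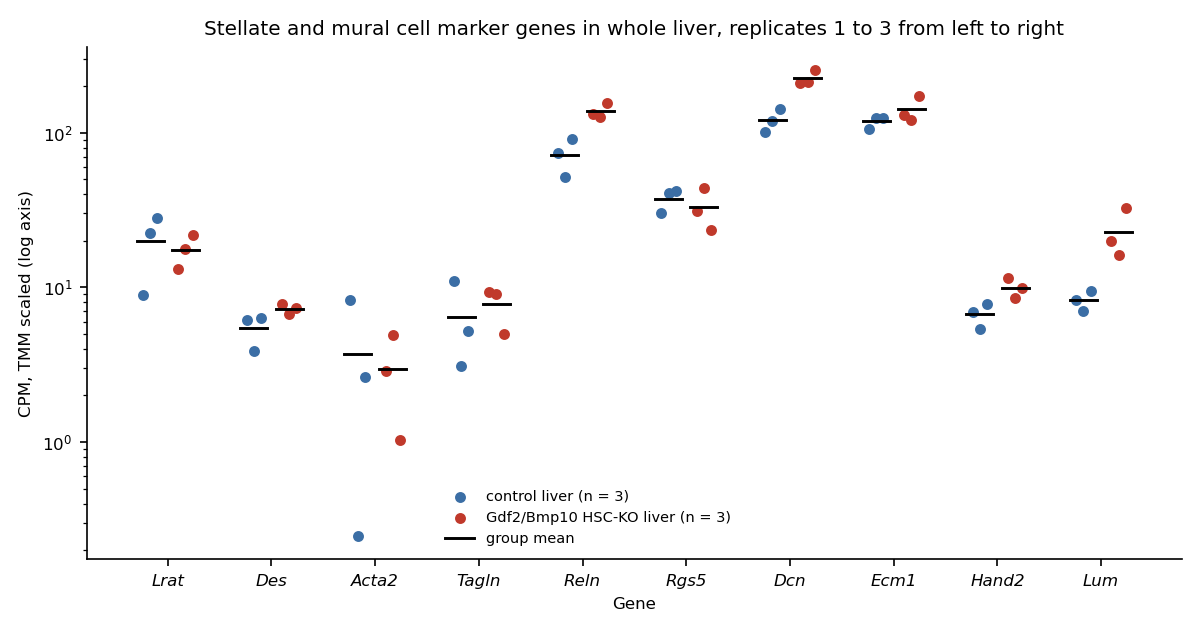
CPM of the 10 genes in each whole liver library on a log axis, control in blue and *Gdf2/Bmp10* HSC-KO in red, replicates 1 to 3 from left to right, with a black line at the group mean (n = 3). The red points of *Des*, *Reln*, *Dcn*, *Hand2* and *Lum* lie above all blue points, whereas the control points of *Acta2* run from 0.248 to 8.29 CPM and enclose those of HSC-KO.

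The other genes of these pathways were described with lists of named genes. The lists were chosen with earlier results of these data known, so their counts beside the share of all genes are descriptive only. In whole liver, 1.03% of the 17118 genes tested were called higher and 1.45% lower. Among 19 further HSC genes, 1 rose in whole liver and 2, the deleted *Gdf2* and *Bmp10*, fell, and the median log2 fold change was 0.39. *Cygb*, the stellate cell globin cytoglobin, was at 8.15, 5.43 and 7.70 CPM in control and 15.3, 15.5 and 12.3 CPM in HSC-KO livers (log2 fold change 1.02, SE 0.19, adjusted p = 0.039), just past the fold threshold. With library size alone or with all genes of at least 1 count, 0 of the list rose. The same held with the replicate number as a block and in the test for changes beyond 1 on the log2 scale. *Lhx2*, a transcription factor of HSCs (0.94, adjusted p = 0.037), and *Pdgfra*, a PDGF receptor (0.75, adjusted p = 0.040), passed the adjusted p but not the fold threshold, and were chosen after their values were seen. Of 10 measured genes of retinoid handling 0 met the call in whole liver with edgeR or with DESeq2, 1 had an unadjusted p below 0.05, and 1 was called lower with *Xist* as a covariate. Their median log2 fold change was -0.15, and their sum was 3310, 3052 and 3038 CPM in control and 2509, 2130 and 3008 CPM in HSC-KO livers, lower without overlap. The most abundant, *Rbp4*, which carries retinol in plasma and is made by hepatocytes, averaged 1794 CPM in control livers and 1598 CPM in those of HSC-KO mice (log2 fold change -0.17, adjusted p = 0.77), and *Aldh1a1* had a log2 fold change of -0.54 (adjusted p = 0.59).

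Of 22 genes of matrix and activation, 21 were tested in whole liver and 2 rose, where 1.03% of all tested genes did. Of the 21, 14 were above 0 on the log2 scale, and the median log2 fold change was 0.51. With all genes of at least 1 count 1 rose, and DESeq2 called 4 higher and 1 lower. *Mmp2*, a gelatinase, was at 4.82, 4.30 and 3.89 CPM in control and 10.99, 11.9 and 8.75 CPM in HSC-KO livers (log2 fold change 1.28, SE 0.18, edgeR quasi-likelihood adjusted p = 0.014). *Thbs2*, a matricellular protein, was at 3.29, 2.16 and 4.34 CPM and at 10.2, 12.2 and 7.56 CPM (log2 fold change 1.61, SE 0.30, adjusted p = 0.035). *Col1a1*, *Col1a2* and *Col3a1*, fibrillar collagen genes chosen after their values were seen, did not pass the adjusted p. Each was higher in every HSC-KO library than in every control library. The log2 fold change was 0.93 for *Col1a1* (adjusted p = 0.23), 0.85 for *Col1a2* (adjusted p = 0.24) and 1.18 for *Col3a1* (adjusted p = 0.18). *Col3a1* ran from 18.6 to 48.0 CPM in control and from 60.8 to 104 CPM in HSC-KO livers. *Timp1* was not tested, because it did not pass the filter on low counts. In 9 of the 21 genes the HSC-KO libraries lay above the control libraries, as in 8.8% of all tested genes, while the list's sum overlapped, with 2767, 2105 and 2805 CPM in control and 2898, 2472 and 2087 CPM in HSC-KO livers. Beside *Dcn* and *Lum*, 7 of 10 further small leucine-rich proteoglycan genes were tested and 2 were called higher, *Ogn* (osteoglycin) and *Aspn* (asporin), the latter of which passed the filter on low counts only through HSC-KO livers, so nothing is read from its call. The median log2 fold change was 1.28. *Ogn* was at 3.05, 1.43 and 2.36 CPM in control and 6.46, 8.20 and 5.96 CPM in HSC-KO livers (log2 fold change 1.59, SE 0.30, adjusted p = 0.040). *Aspn* had 3, 0 and 0 counts in control and 45, 74 and 20 counts in HSC-KO livers. Its control counts were at or below the limit of detection, so no ratio is drawn from them. Neither call held with all genes of at least 1 count, where 0 of the list were called, and 1 was called with library size alone and with at least 10 counts required in every library.

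In a list of 16 further contractile and mural genes, 15 were tested in whole liver and 3 rose, where 1.03% of all tested genes did. The median log2 fold change was 0.39. *Kcnj8* and *Abcc9* encode the pore and the regulatory subunit of a potassium channel gated by ATP, and *Ednra* an endothelin receptor. *Kcnj8* was at 3.07, 2.22 and 2.43 CPM in control and 13.1, 12.4 and 11.1 CPM in HSC-KO livers (log2 fold change 2.24, SE 0.19, edgeR quasi-likelihood adjusted p = 0.0015). *Abcc9* was at 23.1, 25.1 and 34.1 CPM and at 75.2, 84.6 and 82.4 CPM (log2 fold change 1.56, SE 0.17, adjusted p = 0.0040). Both also rose in sorted ECs of HSC-KO mice, *Kcnj8* from 12.3 to 19.9 CPM in control to 120 to 190 CPM in HSC-KO libraries (log2 fold change 3.28) and *Abcc9* by 1.02 on the log2 scale. *Kcnj8* was thus higher in ECs than in whole liver in control as in HSC-KO mice. Which cells carried the rise of these genes in whole liver was not tested. *Ednra* was at 3.90, 3.35 and 5.28 CPM in control and 8.74, 13.01 and 13.3 CPM in HSC-KO livers (log2 fold change 1.48, SE 0.25, adjusted p = 0.023), and it was low in ECs, at 0.0424 to 0.245 CPM over both groups. Of the 4 PDGF ligand genes, *Pdgfb*, a mitogen of HSCs and pericytes, rose in whole liver from 1.90 to 2.26 CPM in control to 12.8 to 17.4 CPM in HSC-KO libraries (log2 fold change 2.79, SE 0.19, adjusted p = 7.9e-04), and in ECs by 4.11 on the log2 scale. Of 11 tested portal fibroblast genes, 0 met the call with edgeR or DESeq2 and 0 had an unadjusted p below 0.05, and the median log2 fold change was 0.00398. *Gsn* (0.89, adjusted p = 0.51) and *Eln* (0.34, adjusted p = 0.72) were its most abundant genes. Among 7 mesothelial, 8 lymphocyte and 7 erythroid and platelet genes 0 met the call with edgeR, with 0, 2 and 2 at an unadjusted p below 0.05 and 0, 1 and 1 called by DESeq2. All 8 lymphocyte genes were below 0 (median -1.21), with sums of 6.92 to 9.05 CPM in control and 1.67 to 4.90 CPM in HSC-KO livers. Cholangiocyte genes summed to 76.2 to 107 and 55.8 to 70.4 CPM. *Spp1* fell among 8 cholangiocyte genes (-1.37, adjusted p = 0.014).

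**Figure D2:**
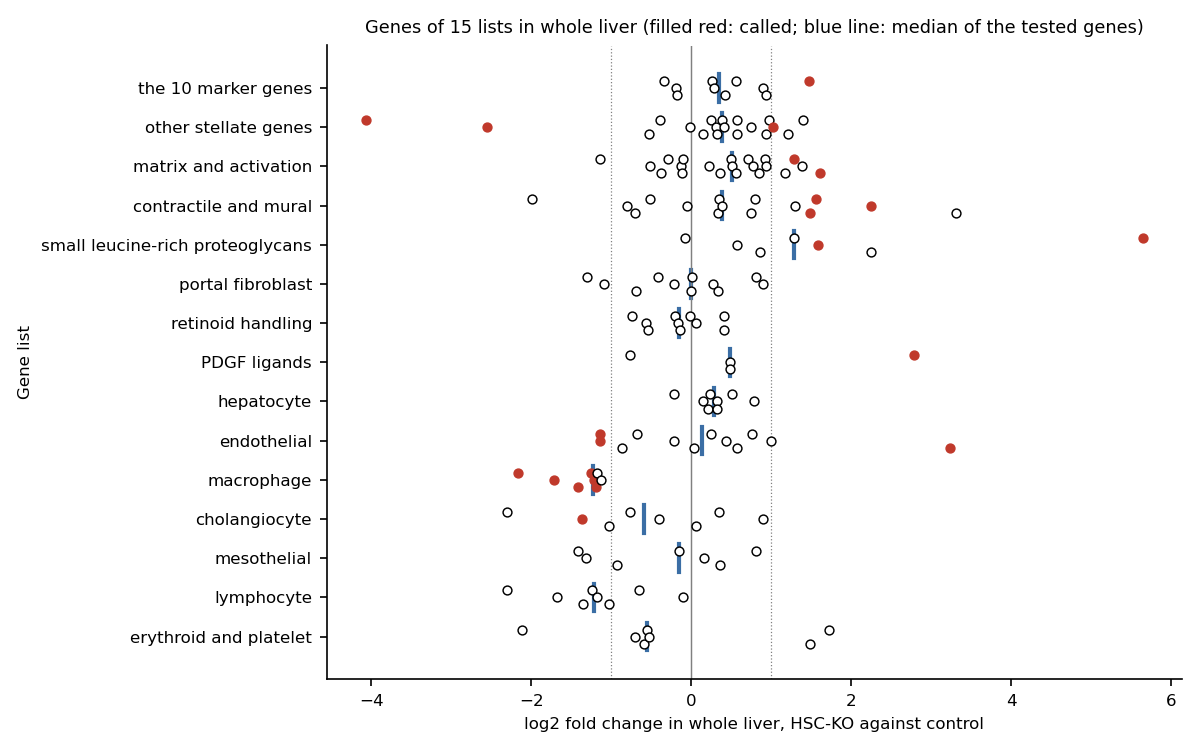
Log2 fold change in whole liver, HSC-KO against control, for each tested gene of the 10 marker genes and of 14 further lists, with called genes in red and the median of each list as a blue line. The 3 called genes of the contractile and mural list lie between 1.48 and 2.24, and 6 of the 8 macrophage genes are called on the left side. The point at 5.65 is *Aspn*, which was at or below 3 counts in every control library.

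Levels per kilobase of exon placed *Ecm1* and *Dcn* above the other genes in control livers, with 55.4 and 24.3 CPM per kilobase, on a scaling over all 24 libraries. *Rgs5* came next with 9.69 CPM per kilobase, and these 3 did not overlap with each other or with the genes below. From *Lrat* (4.35) through *Lum* (3.98), *Tagln* (3.84), *Reln* (3.59), *Hand2* (3.38) and *Acta2* (2.03) to *Des* (1.71), each gene's range over the 3 control livers overlapped that of the next. In HSC-KO livers *Lum* held the third place, with 10.6 CPM per kilobase, and its range overlapped that of *Rgs5* (8.19). *Lrat* stood at 3.70 CPM per kilobase there, and *Reln* at 6.59. Since the tables came from separate experiments, these levels across tissues are descriptive. The ratio of the control liver mean to the control EC mean, in CPM, was 45.8 for *Hand2*, 29.9 for *Reln*, 24.5 for *Lum* and 13.2 for *Acta2*, and between 3.98 and 5.64 for *Rgs5*, *Dcn* and *Tagln*. It was only 2.57 for *Des*, 1.53 for *Lrat* and 1.36 for *Ecm1*. Single libraries set several of these ratios. That of *Acta2*, whose ranges overlapped, was 5.03 without liver control replicate 1, and that of *Tagln* was 3.58 without the same library. Without EC control replicate 1 the ratio was 114.9 for *Hand2*, 48.4 for *Reln* and 4.54 for *Des*, and without EC control replicate 3 it was 30.6 for *Hand2*, 16.3 for *Lum* and 8.83 for *Acta2*. Against control macrophages of the HSC-KO experiment the ratio was 83.5 for *Reln* and 1.34 for *Ecm1*. *Reln* ran from 0.074 to 1.77 CPM over these macrophage libraries, so its ratio too depends on single libraries. For *Reln*, *Hand2*, *Lum*, *Tagln*, *Rgs5* and *Dcn* no library of control liver overlapped a library of control ECs or macrophages, whereas *Lrat* and *Des* overlapped with all of them. The sorted cells thus held *Lrat* without a matching amount of *Reln*, with 0.237, 0.219 and 0.0412 *Reln* reads per *Lrat* read in control ECs.

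**Figure D3:**
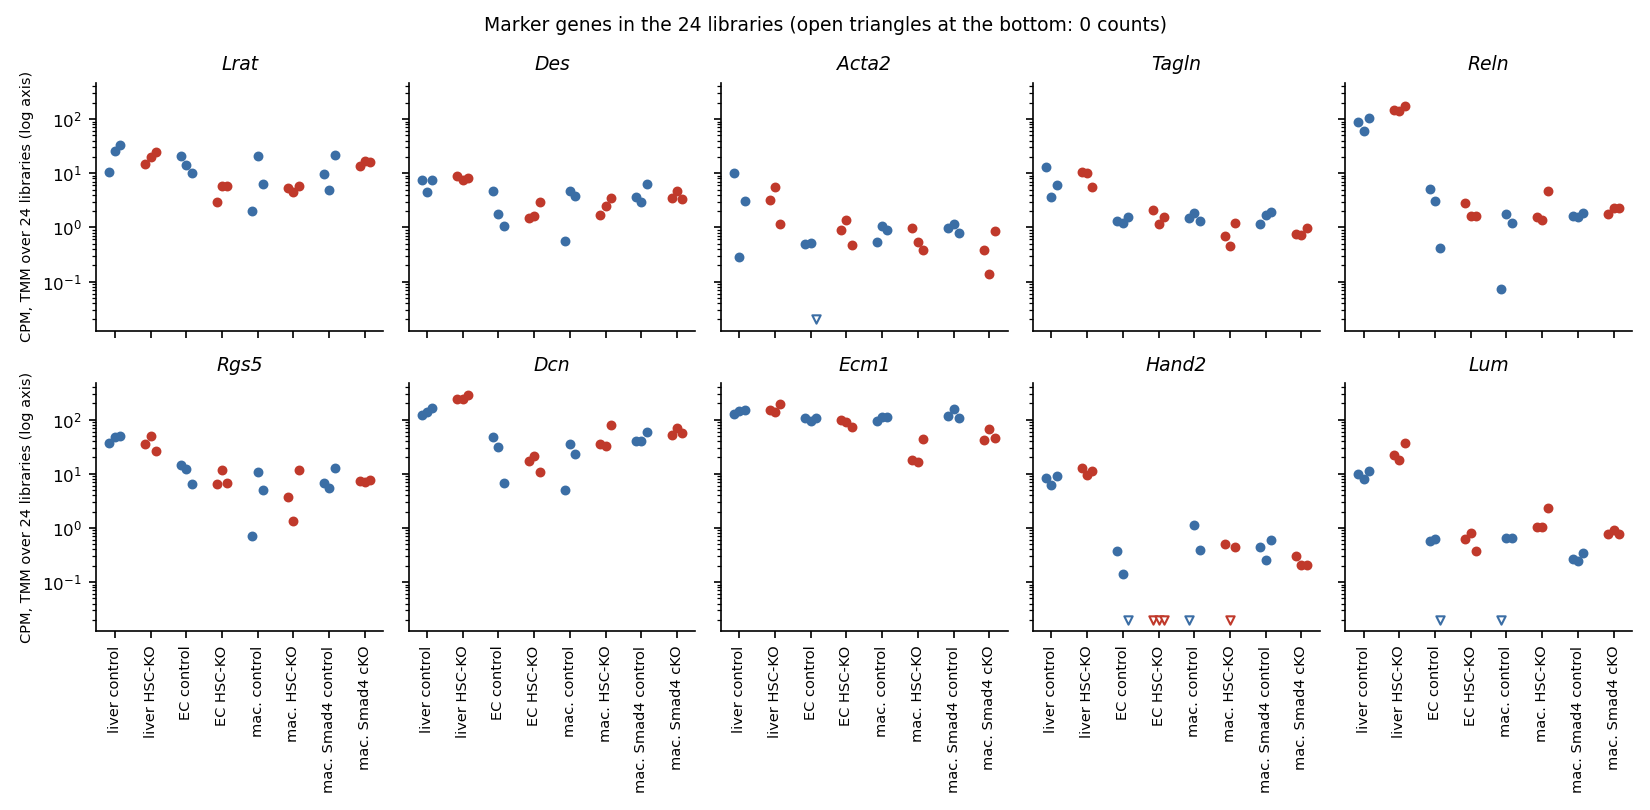
CPM of each gene, scaled over 24 libraries and on a log axis, in the 3 libraries of each of the 8 groups (blue control, red mutant), with libraries at 0 counts drawn as open triangles at the bottom. *Reln*, *Hand2* and *Lum* are highest in whole liver, the *Ecm1* mean of control liver is 1.36 times that of control ECs and 1.34 times that of control macrophages, and the red *Ecm1* points of both macrophage experiments lie below the blue ones.

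In sorted ECs, *Lrat* fell and no other gene of the 10 was called. *Lrat* was at 24.5, 16.6 and 11.9 CPM in control ECs and at 3.32, 6.78 and 6.75 CPM in HSC-KO ECs. The groups did not overlap (log2 fold change -1.65, SE 0.36, 95% confidence interval -2.48 to -0.82, edgeR quasi-likelihood adjusted p = 0.016). This made 1 of the 9 genes tested, where 13.7% of the 16053 tested genes were called and 6.01% were called lower. It was also the only gene of the 10 whose groups did not overlap, where 40.4% of all tested genes did not. Without control replicate 1, the control library with *Xist* counts, the adjusted p was 0.054 with a log2 fold change of -1.34. The call was also lost with the replicate number as a block, as given at the end. *Reln* was at 5.80, 3.64 and 0.489 CPM in control and 3.16, 1.91 and 1.88 CPM in HSC-KO ECs (log2 fold change -0.51, SE 0.73, adjusted p = 0.69). *Dcn* was at 54.3, 36.3 and 7.94 CPM and at 19.5, 24.4 and 12.5 CPM, with control replicate 3 as the lowest of the 6 libraries for both genes. Its log2 fold change of -0.81 (SE 0.60, adjusted p = 0.41) became -1.27 without that library, with an adjusted p of 0.044, which met the call. *Hand2* had 36, 10 and 0 counts in control and 0 in every HSC-KO library, at least 4.79-fold lower against the floor of 3 counts per library, and at least 1.93-fold lower without control replicate 1. It did not pass the filter on low counts and was not tested. *Acta2* was low, at 0.561, 0.614 and 0 CPM in control and 1.03, 1.62 and 0.550 CPM in HSC-KO ECs (log2 fold change 1.44, SE 1.13, adjusted p = 0.44). *Ecm1*, the most abundant of the 10 in ECs, was at 123, 109 and 128 CPM in control and 110.7, 105 and 86.6 CPM in HSC-KO ECs (log2 fold change -0.26, SE 0.14, adjusted p = 0.25). The adjusted p of *Des*, *Tagln*, *Rgs5* and *Lum* ranged from 0.46 to 0.78. The median of the 9 was -0.30, beside 0.00475 over all genes.

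The 19 further HSC genes, with the deleted *Gdf2* and *Bmp10* among them, were also followed in the EC libraries. Their sum was 162, 108 and 89.7 CPM in control and 88.6, 120 and 133 CPM in HSC-KO ECs, and these ranges overlapped. Whether this sum follows the amount of HSC RNA in the sorted cells was not tested. The median log2 fold change of the 17 tested was -0.92, with 4 of them above 0. *Hgf*, which encodes hepatocyte growth factor (-4.35), *Vipr1* and the deleted *Gdf2* (-6.39) fell, and 1 of the 17 rose. *Vipr1* (vasoactive intestinal peptide receptor 1) was at 31.2, 20.4 and 14.2 CPM in control and 8.83, 8.19 and 13.5 CPM in HSC-KO ECs (log2 fold change -1.11, SE 0.32, adjusted p = 0.047), with its highest value in control replicate 1, as for *Lrat*. Hepatocyte genes summed to 56.9 to 109 CPM in control and 43.3 to 62.2 CPM in HSC-KO ECs, and macrophage genes to 262 to 357 and 64.7 to 108 CPM. Contractile and mural genes summed to 330 to 388 and 731 to 794 CPM (4 of 12 tested rose, where 7.68% of all genes did) and portal fibroblast genes to 47.9 to 49.97 and 109 to 178 CPM (3 of 10 rose). The genes of retinoid handling had a median log2 fold change of -0.97, with 1 of 9 tested above 0 and 0 called by edgeR (3 at an unadjusted p below 0.05, and 3 called lower by DESeq2). The further small leucine-rich proteoglycan genes summed to 1054 to 1216 and 391 to 954 CPM, with a median of -0.62, and endothelial genes were lower as given above. The part of these lists in the *Lrat* result was not tested. Leaving out control replicate 1 and HSC-KO replicate 3 together, chosen after seeing the data because the summed level of the 10 genes, *Lrat* included, lay farthest from their group's median, left *Lrat* at -1.50 (adjusted p = 0.11).

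Whether the genes responded differently in whole liver and in ECs was tested as an interaction over these 12 libraries, a fit that sets sorted cells of mice at 8 to 10 weeks against tissue of mice at 12 weeks. Only *Hand2* among the 10 was called, where 6.53% of the 18875 genes tested were called. It passed the filter on low counts only through whole liver, where it is high, so this call is given as a description and nothing is read from it. Its fitted difference in log2 fold change, liver minus EC, was 7.35 (no bound, SE 1.87, edgeR quasi-likelihood adjusted p = 0.045). This value depends on the prior count, since every HSC-KO EC library was at 0 counts, and the call was lost without any single library other than EC control replicate 3. *Dcn* differed by 1.67 (SE 0.70, adjusted p = 0.20), *Lrat* by 1.44 (SE 0.60, adjusted p = 0.19) and *Reln* by 1.41 (SE 0.81, adjusted p = 0.36), and the interval of each included small differences, from 0.13 for *Dcn* and *Lrat* and from -0.37 for *Reln*. Without EC control replicate 3, 3 of the 10 were called, with *Dcn* at 2.14 (adjusted p = 0.0068) and *Reln* at 1.93 (adjusted p = 0.019) beside *Hand2*. The difference was 0.48 for *Ecm1*, 0.68 for *Des*, 0.84 for *Lum* and -1.83 for *Acta2*, none of which met the call.

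In sorted macrophages of HSC-KO mice, *Ecm1* fell and the other 9 genes did not meet the call. *Ecm1* was at 89.7, 103 and 107 CPM in control macrophages. In HSC-KO macrophages it was at 17.5, 15.9 and 43.6 CPM, so that the highest of these, replicate 3, was still below every control library. The log2 fold change was -1.96 (SE 0.38, 95% confidence interval -2.83 to -1.09, edgeR quasi-likelihood adjusted p = 0.010), and the call held with each library left out. It was 1 of the 10 genes tested, where 11.7% of 16337 genes were called and 5.34% called lower. *Tagln* and *Lum* also had groups that did not overlap, as 40.3% of all genes did. *Tagln* was at 1.41, 1.74 and 1.31 CPM in control and 0.672, 0.440 and 1.24 CPM in HSC-KO macrophages (log2 fold change -0.92, adjusted p = 0.22). *Lum* was at 0, 0.624 and 0.647 CPM and at 1.00, 1.01 and 2.39 CPM (log2 fold change 1.80, SE 1.18, adjusted p = 0.34). *Lrat* ran from 1.96 to 19.5 CPM in control and from 4.27 to 5.76 CPM in HSC-KO macrophages (log2 fold change -0.86, adjusted p = 0.43), and without control replicate 2, the highest, the estimate was 0.32. *Dcn* was at 4.75, 32.8 and 22.7 CPM and at 35.5, 31.3 and 80.1 CPM (log2 fold change 1.29, SE 0.65, adjusted p = 0.21). The 19 further HSC genes summed to 15.7, 85.5 and 60.6 CPM in control and 76.5, 64.2 and 133 CPM in HSC-KO libraries, with 15 of the 17 tested above 0 on the log2 scale and a median of 0.66. The lowest sum was that of control replicate 1, which was also lowest for *Lrat*, *Reln*, *Rgs5*, *Des* and *Dcn* in that group. The macrophage genes themselves summed to 25489 to 25629 CPM in control and 19062 to 20670 CPM in HSC-KO macrophages, and endothelial genes to 351 to 573 and 58.3 to 129 CPM. Matrix and activation genes summed to 119 to 181 and 263 to 368 CPM (5 of 20 tested rose and 1 fell). Of 9 tested genes of retinoid handling 3 fell, with a median log2 fold change of -1.24. Portal fibroblast genes summed to 13.8 to 16.4 and 72.2 to 105 CPM (3 of 6 tested rose, where 6.32% of all genes did), lymphocyte genes to 67.0 to 107 and 235 to 310 CPM, and erythroid and platelet genes to 79.9 to 119 and 559 to 977 CPM. That last sum was carried by *Pf4* (platelet factor 4), the 1 gene of the list that rose (log2 fold change 3.70), while 4 of the 6 tested, all of the erythroid lineage, fell and the list's median was -2.35. The part of these lists in the values of *Ecm1*, *Dcn* and *Lum* was not tested. *Ecm1* itself was at 109 to 128 CPM in control ECs.

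In macrophages lacking *Smad4*, *Ecm1* fell and *Lum* rose. *Ecm1* was at 116, 156 and 107 CPM in *Smad4* fl/fl controls and at 42.2, 67.3 and 46.2 CPM in *Smad4* cKO macrophages, without overlap (log2 fold change -1.28, SE 0.22, 95% confidence interval -1.80 to -0.76, edgeR quasi-likelihood adjusted p = 0.014). Without cKO replicate 1 its adjusted p was 0.063. Whether the size of the fall differed between the 2 macrophage experiments was not tested. *Lum* rose at a very low level, from 0.268, 0.244 and 0.339 CPM in control to 0.773, 0.922 and 0.776 CPM in cKO macrophages (log2 fold change 1.53, SE 0.36, adjusted p = 0.045). That call was lost without any single library (adjusted p 0.088 to 0.13). These 2 of 10 genes compare with 5.43% of the 17517 genes tested, and *Ecm1*, *Lum* and *Tagln* were the genes whose groups did not overlap, where 29.4% of all genes did not. *Tagln* was at 1.14, 1.67 and 1.87 CPM in control and 0.773, 0.706 and 0.979 CPM in cKO macrophages (log2 fold change -0.93, SE 0.32, adjusted p = 0.14). *Lrat* was at 9.63, 4.85 and 21.4 CPM in control and 13.4, 16.5 and 15.9 CPM in cKO macrophages, with no call (log2 fold change 0.35, SE 0.47, adjusted p = 0.74). *Dcn* (0.37), *Reln* (0.34), *Des* (-0.13), *Rgs5* (-0.18), *Hand2* (-0.87) and *Acta2* (-1.08) did not meet the call. Endothelial genes summed to 2321, 760 and 2154 CPM in control and 2100, 2053 and 1629 CPM in cKO libraries, and these ranges overlapped. Other lists moved without overlap, with macrophage genes at 26728 to 31260 CPM in control and 20615 to 25090 CPM in cKO libraries, and cholangiocyte genes at 13.9 to 17.1 CPM and 21.1 to 39.0 CPM. Erythroid and platelet genes summed to 81.4 to 153 CPM and 325 to 459 CPM, again with *Pf4* as the 1 gene that rose (2.44). The part of these lists in the *Ecm1* and *Lum* results was not tested.

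**Figure D4:**
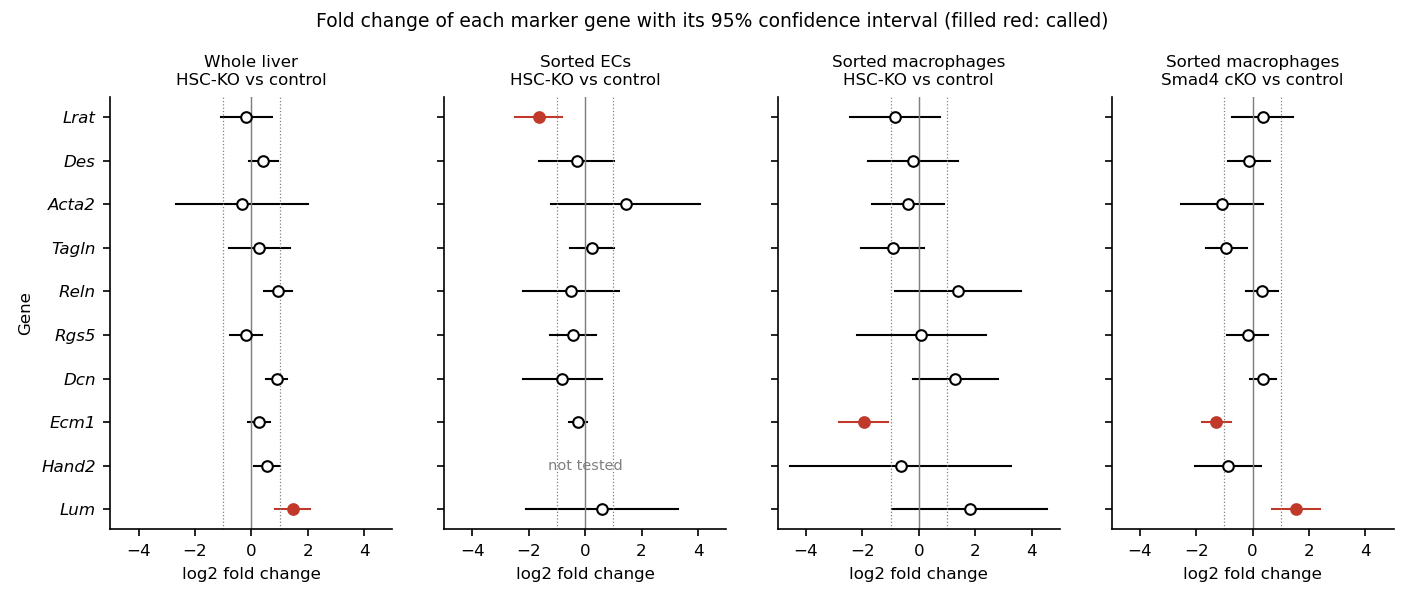
Log2 fold change of the 10 genes with the 95% confidence interval in whole liver, ECs and macrophages that came from *Gdf2/Bmp10* HSC-KO mice, and in *Smad4* cKO macrophages, each against its own controls, with called genes in red and dotted lines at the fold threshold of 1 in either direction. *Lum* is called in liver (1.47) and in *Smad4* cKO macrophages (1.53), *Lrat* in ECs (-1.65) and *Ecm1* in both macrophage comparisons (-1.96 and -1.28), and the interval of *Acta2* is wide in liver and in ECs.

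Set side by side, each gene was called in no more than 2 of the 4 comparisons. *Ecm1* had log2 fold changes of 0.26 in whole liver, -0.26 in ECs, -1.96 in HSC-KO macrophages and -1.28 in *Smad4* cKO macrophages. *Lrat* had -0.18, -1.65, -0.86 and 0.35 in the same order. *Dcn* had 0.90, -0.81, 1.29 and 0.37, and *Lum* was above 0 in all 4, with 1.47, 0.59, 1.80 and 1.53. *Lum* was at 0 counts in EC control replicate 3 and in control replicate 1 of the HSC-KO macrophage comparison. Its EC value was as low as 0.0048 with 1 library left out. Each comparison has its own control libraries, and for 3 mice the ECs and the macrophages came from the same animal.

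As a description of likeness, those of the 10 genes whose log2 CPM averaged 0 or more were correlated over the 24 libraries with the 12161 genes at such a level, which share tissues and depth. *Reln* was most like *Fgfr2* (Pearson r = 0.98), *Steap4* (0.98) and *Tmem56* (0.97). *Dcn* was most like *Colec11* (0.96), *Bmp5* (0.95) and *Sod3* (0.93), and *Des* like *Colec11* (0.91), *Sod3* (0.90) and *Pth1r* (0.90). The genes most like *Lum* included *Reln* (0.94) and *Col6a1* (0.93), and *Rgs5* like *Col5a1* (0.91), *Daam2* (0.91) and *Colec10* (0.89). The closest genes to *Lrat* were *Lhfp* (0.85), *Vipr1* (0.78) and *Colec11* (0.77), the lowest set among these members. *Ecm1* was most like *Inf2* (0.91), *Pyurf* (0.89) and *Lbp* (0.89), and *Tagln* like *Sec31a* (0.94), *Habp4* (0.94) and *Ogdh* (0.93), none of them from the lists of HSC or contractile genes. *Acta2* and *Hand2* were below the level asked for.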

How the data were processed

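Counts of 24 libraries were analysed in 4 comparisons of 3 against 3. The authors used HISAT2 on mm10 and featureCounts, and deposited whole-number counts without normalization, per the labels' processing notes and the study's methods; versions, annotation release and strand setting are not given in the sources used here. Libraries were grouped by sample titles. In R 4.3.3, low genes were removed by edgeR 4.0.16 (filterByExpr, at least 10 counts in enough libraries and 15 in total), counts were scaled with TMM and tested with edgeR's quasi-likelihood test (limma 3.58.1), Benjamini-Hochberg adjusted over all genes tested. SE is the log2 fold change divided by the square root of F. With 3 against 3, precision rests on libraries stated to be independent biological replicates. Depth was 60911527 to 110879155 counts. Positions and exon lengths came from GENCODE vM21 and upstream sequences from RefSeq (Python 3.11.15).

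The fits were tested on simulated data. The 10 genes and the lists were chosen with earlier results of these data known. Named genes were the 10 members, the deleted genes, up to 4 called genes per list with the largest change in liver or, with none called, the 2 most abundant of a list a result turns on, and the 3 most like genes per member; some results that this rule would name are not reported here. Alternatives were DESeq2 1.42.0, its size factors, library size alone, no filter, 10 or more counts throughout, a test for changes beyond 1 on the log2 scale (glmTreat), each library left out, the replicate number as a block, *Xist* as a covariate where it varied, and, chosen after seeing the data, ECs without 2 libraries.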

Additional observations from a re-analysis of the deposited data

Results flagged for a closer look

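*Hand2* was singled out because the interaction fit over 12 libraries called a difference between its values in whole liver and in ECs. It passed the filter on low counts only through whole liver, and the fitted value depends on the prior count and is no bound. The fitted difference in log2 fold change, whole liver minus ECs, was 7.35 (SE 1.87, edgeR quasi-likelihood adjusted p = 0.045). The libraries behind it were 763, 415 and 706 counts in control liver and 853, 715 and 708 in HSC-KO liver, against 36, 10 and 0 in control ECs and 0 in every HSC-KO EC library. Its adjusted p ranged from 1.6e-04 to 0.11 over the other settings and from 0.0018 to 0.095 with each library left out.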

How the results depend on the processing

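The number of the 10 genes called was 1 in whole liver, ECs, HSC-KO macrophages and the interaction and 2 in *Smad4* cKO macrophages. In a test for changes beyond 1 on the log2 scale it was 0 in all 5, and in liver 0 further HSC, matrix and proteoglycan genes and 1 contractile gene rose and 1 macrophage gene fell. It was 1 in *Smad4* cKO macrophages with all genes of at least 1 count, 0 in the interaction with only genes of at least 10 counts in every library, and 0 in ECs without control replicate 1 and HSC-KO replicate 3. With each library left out, it ranged from 0 to 1 in whole liver, 0 to 2 in ECs, 0 to 1 in *Smad4* cKO macrophages and 0 to 3 in the interaction, and was 1 throughout in HSC-KO macrophages.

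The main fits did not pair libraries by replicate number. Correlations of same-numbered deviations lay between 0.013 and 0.049 in liver, 0.033 and 0.12 in ECs, -0.11 and 0.16 in HSC-KO and -0.099 and 0.099 in *Smad4* macrophages. In ECs every library correlated best with its own number, a hint from the data only, so whether the EC libraries were paired is not settled. With the replicate number as a block, the count of the 10 genes was 0 in ECs (*Lrat* -1.65, adjusted p = 0.050) and 1 in *Smad4* cKO macrophages, *Des* (0.18) and *Hand2* (0.073) turned positive in HSC-KO macrophages, and the genes called over all in liver went from 425 to 271. In liver 0 further HSC genes, 0 further proteoglycan genes and 1 matrix gene rose with the block.

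Other log2 values that turned their sign were of genes that were not called. With library size alone they were *Ecm1* in ECs (0.029), *Des* in *Smad4* cKO macrophages (0.021), and *Tagln* (-0.37) and *Rgs5* (-0.13) in the interaction. *Tagln* in the interaction was -0.014 with all counted genes. With the *Xist* covariate *Rgs5* was 0.030 in liver and -0.15 in HSC-KO macrophages. In ECs without control replicate 1 and HSC-KO replicate 3, *Des* was 0.11 and *Reln* 0.29. With each library left out, the ranges that crossed 0 were, in liver, -0.52 to 0.18 for *Lrat*, -0.93 to 1.03 for *Acta2*, -0.036 to 0.92 for *Tagln* and -0.46 to 0.0084 for *Rgs5*. In ECs they were -0.70 to 0.50 for *Des* and -1.02 to 0.16 for *Reln*. In HSC-KO macrophages they were -1.34 to 0.32 for *Lrat*, -0.69 to 0.25 for *Des*, -1.08 to 1.00 for *Rgs5* and -1.23 to 0.72 for *Hand2*. In *Smad4* cKO macrophages they were -0.036 to 1.06 for *Lrat*, -0.35 to 0.23 for *Des* and -0.42 to 0.24 for *Rgs5*. In the interaction they were -0.12 to 1.09 for *Des*, -0.34 to 0.64 for *Tagln* and -0.071 to 0.54 for *Rgs5*. The cause was not tested.

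Library size alone shifted the median log2 fold change of all genes by -0.11 in liver, 0.29 in ECs and 0.16 in *Smad4* cKO macrophages. It changed the split of higher and lower calls from 1233 and 965 to 1739 and 661 in ECs and from 484 and 467 to 645 and 389 in *Smad4* cKO macrophages. The genes called over all numbered 794 with DESeq2 and 142 with the test for changes beyond 1 in liver, 1096 with that test in ECs, 906 in HSC-KO and 315 in *Smad4* cKO macrophages. They numbered 1959 with DESeq2 and 481 with that test in the interaction, which had 1232, and 1034 in ECs without the pair of libraries named above. With each library left out they numbered 188 to 451 in liver and 566 to 909 in *Smad4* cKO macrophages. With 3 libraries a group and low counts of *Acta2* in ECs, its 95% confidence interval there ran from -1.19 to 4.08.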
